A study of Homo sapiens with 24 samples.

Results

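The Rab25 line of A2780, a human ovarian cancer cell line, was compared with its pcDNA line after 8 h without serum and with no growth factor added. The arrays were chosen by their titles, 4 Rab25 controls and 4 pcDNA controls, which makes 8 of the 24 arrays of the series. Cells of the Rab25 line had been transfected to express Rab25, and cells of the pcDNA line carried the empty vector. Both were kept in a medium the labels give as 5% RPMI 1640, and each was 1 transfected line, so whatever else set the lines apart is part of every difference below. The other 16 arrays held 2 of each line for each of 4 treatments, which were EGF and IGF, both at 10 ng/ml, serum (FBS) at 5%, and 5 ng/ml of TGF beta. The labels conflict on how long these treatments lasted, so treated values may pool exposures that differ between experiments. When starved, each line had 2 arrays in experiment 1 and 2 in experiment 2. The labels do not say whether these came from separate cultures, so p-values measure the spread between arrays, which may be technical.

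Rab25 belongs to the Rab11 family of small GTPases and returns cargo such as integrins from recycling endosomes to the cell surface. It is best known from epithelia and from ovarian and breast cancers, where it has been linked to survival under stress. Serum starvation withdraws growth factors, which in cells generally lowers PI3K and ERK signalling and engages FOXO factors and autophagy.

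Expression is given as the log2 signal the authors deposited. Values of single arrays are in the order experiment 1, then experiment 2, 2 arrays each. Each gene was read from 1 probe set, that with the highest mean in the series, which gave 11940 genes. It is called where limma's adjusted p was under 0.05 in a fit of the 8 arrays with the experiment as a block, and differences are Rab25 minus pcDNA on the log2 scale, with the standard error (SE). Dim genes or probe sets are those with a mean under 6.81, the bound of the lowest 40% of genes, and a fold of a gene that is dim in either line is a ratio of signals only. The median signal of all genes was 8.11 ± 0.03 in Rab25 cells and 8.16 ± 0.05 in pcDNA cells (SD, n = 4 each, exact permutation p = 0.143, 2-sided). With arrays exchanged within experiments the exact permutation p was 0.0556, the smallest that design allows, and both Rab25 arrays lay below both pcDNA arrays in each experiment. Between the 3' and the 5' actin control probe sets, a sign of RNA quality, the signal differed by 0.853 ± 0.169 in Rab25 cells and 0.956 ± 0.148 in pcDNA cells (SD, n = 4 each, exact permutation p = 0.371, where 0.0286 is the smallest p that 4 against 4 allows).

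RAB25 followed the labels. It read 8.82, 8.21, 8.67 and 9.08 in the Rab25 arrays and 5.32, 4.94, 5.10 and 4.90 in the pcDNA arrays. Every Rab25 array lay above every pcDNA array (difference 3.63, SE 0.17, limma adjusted p = 3.81e-06), and the pcDNA values were those of a dim gene. FKBP1B, an FK506-binding protein that steadies calcium release channels, was dim in pcDNA cells too. It read 9.64, 9.47, 9.34 and 9.51 in the Rab25 arrays and 5.80, 5.77, 5.97 and 6.00 in the pcDNA arrays (difference 3.60, SE 0.08, limma adjusted p = 2.91e-08). A dim probe set of FKBP1B gave 0.17 (and 0.66 and 0.27 in others). PNMA2, a paraneoplastic antigen normally found in neurons, was the largest fall by the rule used to name genes. Its signal was 5.98, 6.04, 5.95 and 5.89 in the Rab25 arrays and 8.68, 8.59, 8.63 and 8.60 in the pcDNA arrays (difference -2.66, SE 0.05, limma adjusted p = 1.13e-08), so that the Rab25 arrays were in the dim range and the groups did not overlap.

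**Figure D1:**
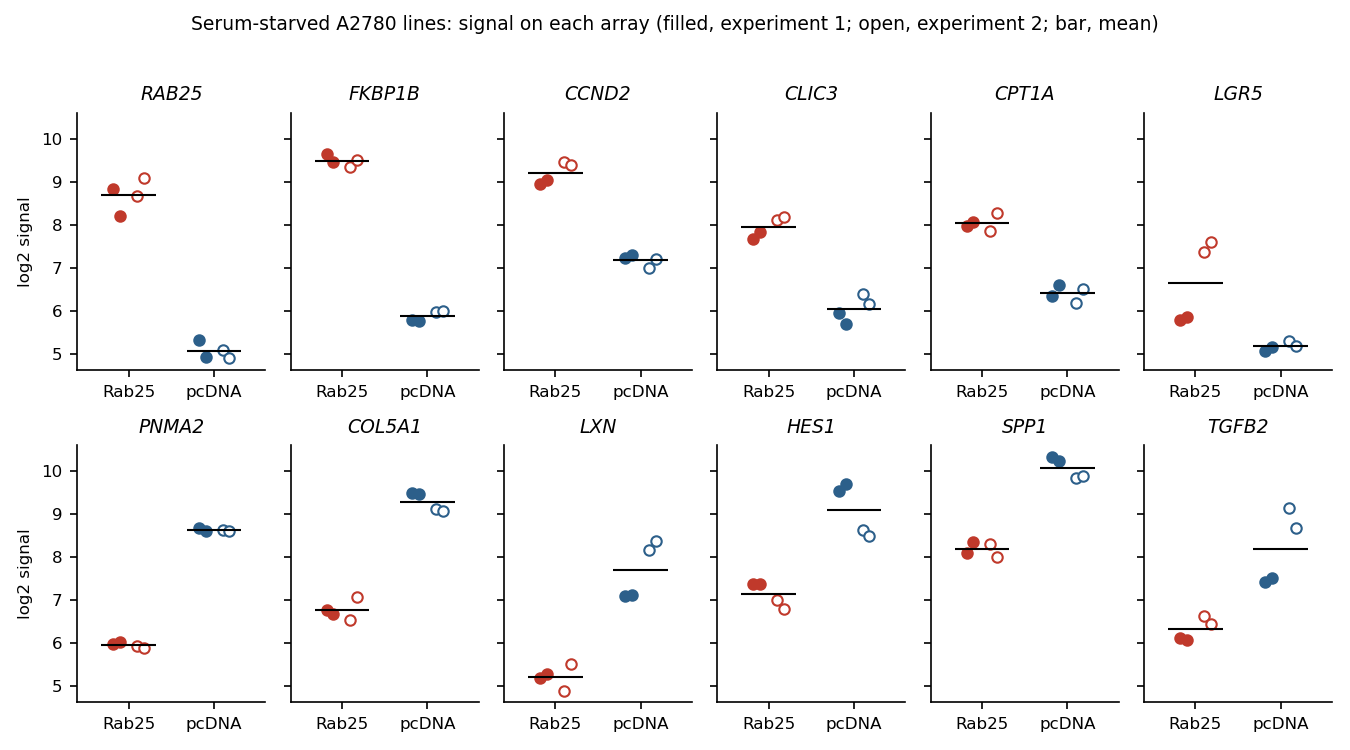
Log2 signal (vertical axis) of 12 genes on each starved array, Rab25 at the left and pcDNA at the right of each panel. Filled points are experiment 1, open points experiment 2, and the bar is the mean of 4 arrays; the groups do not overlap in these 12 panels, and RAB25 averaged 8.70 in Rab25 cells and 5.07 in pcDNA cells.

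Of 11940 genes, 3056 (25.6%) were called, 1203 (10.1%) higher and 1853 (15.5%) lower in Rab25 cells. With dim genes left out the shares were 12.62% higher and 22.35% lower, over 7158 genes placed on chromosomes. These shares belong beside the counts of every gene list below, and a list near them differs as genes in general do. All 4 Rab25 arrays lay above all 4 pcDNA arrays for 905 genes (7.58%) and below them for 1110 (9.30%). Most differences were small. The median size over called genes was 0.33, and 76 genes were called with at least a 2-fold change, 30 higher and 46 lower. Of the called genes 39.4% were higher, a share that was 49.9% after quantile normalization and 54.7% with each array centred on its median. Other fits called fewer genes, namely 919 without the experiment as a block, 1081 with the 2 arrays of each line and experiment averaged, and 1767 when all 24 arrays shared 1 estimate of the spread. Of the 199 called genes that the naming rule chose, 63 were not called in the last of these and 102 without the block, and those described below are named beside each group.

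The 20 largest rises among genes whose arrays did not overlap spanned several roles. CCND2, a D-type cyclin that drives entry into the cell cycle, read 8.96, 9.03, 9.45 and 9.40 in Rab25 cells, against 7.23, 7.30, 7.01 and 7.22 in pcDNA cells (4.07-fold higher, limma adjusted p = 8.21e-06). A dim probe set of CCND2 gave 0.10 (and 0.51 in another). CLIC3, which works with Rab25 in returning integrins from late endosomes, read 7.66, 7.84, 8.12 and 8.18 in Rab25 cells, against 5.95, 5.71, 6.38 and 6.15 in pcDNA cells (3.74-fold higher, limma adjusted p = 2.03e-06). Its groups stood more than 1 log2 unit apart.

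CPT1A, which loads fatty acids for import into mitochondria, was 3.09-fold higher (8.04 ± 0.18 in Rab25 cells and 6.41 ± 0.18 in pcDNA cells, SD, n = 4 each), while other dim probe sets gave 0.18 and 0.07 (and 0.23 in another). PLTP, which transfers phospholipids between lipoproteins, was 2.97-fold higher, and CPS1, the enzyme that starts the urea cycle, 2.27-fold. GSTT1, a glutathione transferase, was 2.46-fold higher (6.90 ± 0.23 in Rab25 cells and 5.61 ± 0.11 in pcDNA cells, SD, n = 4 each). NMNAT2, an enzyme of NAD synthesis, was 2.58-fold higher, by 1.89 in experiment 1 and 0.85 in experiment 2.

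DSP, the plaque protein that ties desmosomes to keratin, read 10.59, 10.53, 10.88 and 10.73 in Rab25 cells, against 9.11, 8.99, 9.29 and 9.32 in pcDNA cells (2.84-fold higher, limma adjusted p = 1.09e-06). AJAP1, a protein of adherens junctions, was 2.72-fold higher, MSLN, the surface antigen mesothelin, 2.69-fold, and ADD2, a cytoskeletal adducin, 2.36-fold, although a dim probe set of ADD2 gave 0.02 (and 1.05 in another). LGR5, the R-spondin receptor, read 5.79, 5.86, 7.36 and 7.59 in Rab25 cells, against 5.07, 5.16, 5.31 and 5.20 in pcDNA cells (2.76-fold higher). Its Rab25 arrays left the dim range in experiment 2 alone. GPR4, a proton-sensing receptor, was 2.74-fold higher and the chemokine receptor CXCR4 2.35-fold. The remaining rises were NMU, a neuropeptide (3.22-fold), SPOCK1, a matrix proteoglycan (2.53-fold), EFNA1, an ephrin ligand (2.25-fold), and SOX17, a transcription factor of the endoderm and the reproductive tract (2.2-fold). In a fit of all 24 arrays SPOCK1 was not called. Omitting the block ended the call of LGR5, NMNAT2 and EFNA1.

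The 20 largest falls held, after PNMA2, COL5A1, a chain that starts the assembly of collagen fibrils. It read 6.77, 6.67, 6.53 and 7.08 in Rab25 cells, against 9.48, 9.46, 9.12 and 9.08 in pcDNA cells (5.73-fold lower, limma adjusted p = 5.38e-06). LXN, an inhibitor of carboxypeptidases, was 5.52-fold lower (5.22 ± 0.26 in Rab25 cells and 7.69 ± 0.67 in pcDNA cells, SD, n = 4 each). CDCP1, a transmembrane substrate of Src kinases, was 4.48-fold lower. It read 8.54, 8.64, 8.12 and 8.25 in Rab25 cells, against 10.70, 10.68, 10.36 and 10.46 in pcDNA cells (SE 0.06, limma adjusted p = 1.06e-07).

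SPP1, the integrin ligand osteopontin, was 3.68-fold lower (8.19 ± 0.17 in Rab25 cells and 10.07 ± 0.24 in pcDNA cells, SD, n = 4 each). TGFB2, a TGF-beta ligand, read 6.12, 6.08, 6.63 and 6.45 in Rab25 cells, against 7.41, 7.51, 9.14 and 8.67 in pcDNA cells (3.63-fold lower), and other dim probe sets gave -0.03 and 0.00 (and -1.90 in another). The chemokine CCL3 was 2.61-fold lower, the decoy receptor IL13RA2 2.58-fold, the peptide receptor VIPR1 2.48-fold and SCG5, a chaperone of prohormone processing, 2.91-fold. TNFSF15, a TNF family ligand singled out after its values were seen, fell by 2.07 (SE 0.54, limma adjusted p = 0.0217) with overlapping arrays. It read 5.79, 6.82, 5.92 and 5.97 in Rab25 cells, against 9.53, 9.91, 7.42 and 5.90 in pcDNA cells.

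Regulators among the falls were HES1, a repressor that Notch induces, KLF9 (3.01-fold), a factor induced by glucocorticoids, NUPR1 (2.84-fold), a stress-induced chromatin protein, and LRIG1 (2.38-fold), which restrains EGF receptors. HES1 read 7.37, 7.38, 6.99 and 6.79 in Rab25 cells, against 9.53, 9.69, 8.63 and 8.50 in pcDNA cells (3.87-fold lower), with a dim probe set at -0.002 (and -1.59 in another). NEDD9, a scaffold at focal adhesions, was 2.42-fold lower, with a dim probe set at -0.08, and that of KLF9 was at -0.03 (and -0.90 in another). CACNA2D3, a calcium channel subunit, was 2.81-fold lower, SLC12A8, a solute carrier, 3.29-fold, SEL1L3 3.47-fold, and PIR, a nuclear iron protein, 2.5-fold. ST6GAL1, which adds sialic acid to glycoproteins, was 2.37-fold lower by its brightest probe set, and its 2 dim ones gave 0.02 and 0.11. Without the block no call was left for SEL1L3, NUPR1 and CCL3.

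Genes of Rab25's own traffic route moved in both directions. Of 26 measured genes of the Rab11 family and the recycling endosome, 6 were higher and 7 lower (7 and 7 under both other scalings), and their median difference was -0.01, as over all genes (-0.01). CLIC3 led the rises with EHD3, a membrane-shaping ATPase of recycling endosomes (7.20 ± 0.13 in Rab25 cells and 6.21 ± 0.11 in pcDNA cells, SD, n = 4 each). SNX4, a sorting nexin that returns cargo from early endosomes, fell by 0.53 (SE 0.06), and RABGGTB, a subunit of the enzyme that puts lipid anchors on Rab proteins, by 0.56 (SE 0.06). RAB11A, after which the family is named, differed by -0.04, SE 0.05 and was not called. Without the block RABGGTB was not called.

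Of 18 measured subunits of integrins, the cargo Rab25 is known for, 27.8% were called, beside 25.6% of all genes, and 1 was higher and 4 were lower (median -0.01), and in the 24-array fit 0 and 2. ITGAV and ITGB5, which pair with each other, fell by 0.41 (SE 0.06) and 0.32 (SE 0.06), and other probe sets of ITGB5 gave -0.15 and -0.16 (and -0.28 in another). ITGA2, a collagen receptor subunit, fell by 0.43, which was not called without pcDNA array 1-2, and the leukocyte subunit ITGB2 rose by 0.71 (SE 0.10). ITGB1, the shared beta subunit of many integrins, read 13.98, 14.02, 14.03 and 13.99 in Rab25 cells, against 13.96, 14.07, 14.08 and 14.14 in pcDNA cells. Its groups overlapped (difference -0.06, SE 0.05, limma adjusted p = 0.48). The 24-array fit did not call ITGB5 and ITGB2, and without the block ITGB5, ITGA2 and ITGB2 were not.

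Of 26 PI3K and AKT pathway genes, 5 were higher and 8 lower, with 6 and 7 after quantile normalization and 5 and 6 after centring. INPP4B, a lipid phosphatase of the pathway, rose by 0.75 (SE 0.05) and averaged 11.01 ± 0.13 in Rab25 cells and 10.26 ± 0.21 in pcDNA cells (SD, n = 4 each). GSK3B, the kinase that AKT inhibits and that acts on glycogen synthase, fell by 0.69 (SE 0.10). The catalytic subunits PIK3CD (0.32, SE 0.05) and PIK3CB (-0.29, SE 0.05) moved in opposite directions, while dim probe sets of both and of INPP4B gave 0.14, -0.03 and 0.10. In the BCL2 family 3 of 18 genes were higher and 6 lower, a balance that turned with scaling, to 5 and 4 after quantile normalization and 4 and 3 after centring. BCL2A1, which blocks apoptosis, rose by 0.73 (SE 0.08), and PMAIP1, which promotes it, fell by 0.42 (SE 0.06). In glycogen metabolism 2 of 19 genes were higher and 4 lower (10.53% and 21.05%, beside 10.1% and 15.5% of all genes). Those lower were led by GYG1, the primer of glycogen (-0.56, SE 0.06), and GBE1, the branching enzyme (-0.27, SE 0.05). Fitting all 24 arrays left 1 higher and 6 lower in the PI3K list, 1 and 1 in the BCL2 family, and 1 and 1 in glycogen metabolism. When 24 arrays shared the spread PIK3CD, BCL2A1 and GBE1 were not called. Omitting the block ended the call of PIK3CB and BCL2A1.

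**Figure D2:**
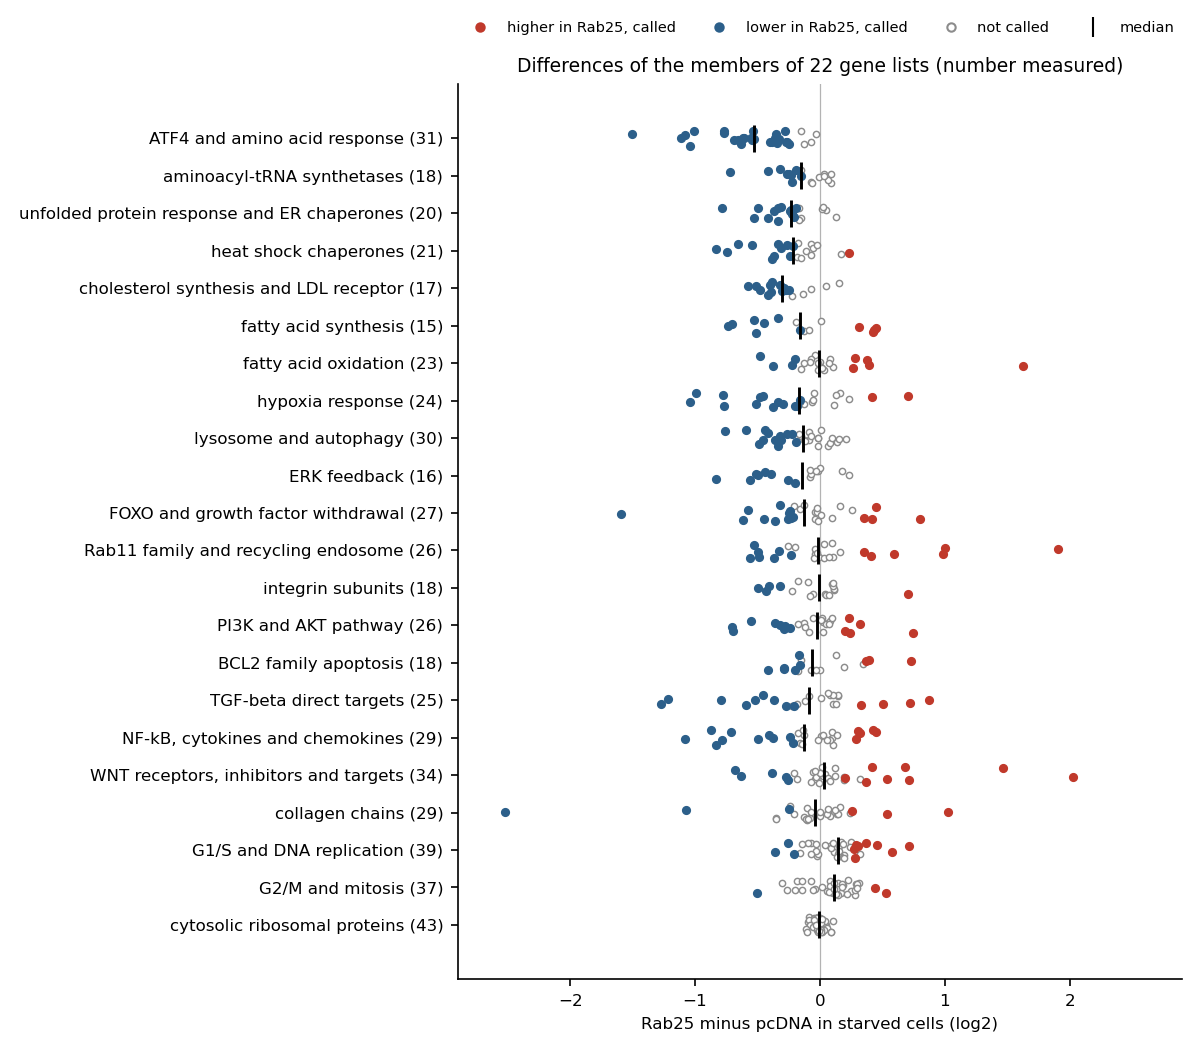
Line difference (horizontal axis, Rab25 minus pcDNA, log2) of every measured member of 22 gene lists, with list sizes in brackets. Filled points are called higher (red) or lower (blue), open points are not called, and black bars are medians, -0.53 for the ATF4 list.

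Genes that the transcription factor ATF4 switches on when amino acids run short or the endoplasmic reticulum is stressed were lower in Rab25 cells. Of 31 measured, 27 were lower and 0 higher, and the median was -0.53, beside 15.5% lower and a median of -0.01 over all genes. The mean of the list was 10.76, 10.81, 10.19 and 10.11 in the Rab25 arrays and 11.24, 11.34, 10.73 and 10.71 in the pcDNA arrays. Rab25 cells lay below pcDNA cells within each experiment, and both lines were lower in experiment 2. Fitting all 24 arrays left 9 lower, averaging arrays 14 and omitting the block 6, with 0 higher each time. ATF4 itself differed by -0.02, SE 0.06 and was not called.

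By role, and with CHAC1, TRIB3, DDIT3, ASNS and CEBPG singled out after their values were seen, the stress regulators were lower, namely NUPR1 (-1.51, SE 0.13), TRIB3, a pseudokinase (-0.63, SE 0.08), DDIT3, a transcription factor of prolonged stress (-0.55, SE 0.10), and CHAC1, which breaks down glutathione (-0.77, SE 0.08). CHAC1 read 8.60, 8.69, 8.54 and 8.30 in Rab25 cells, against 9.25, 9.28, 9.29 and 9.38 in pcDNA cells. Its groups did not overlap. The amino acid suppliers CBS, which makes cystathionine (-1.01, SE 0.09), SLC7A11, which imports cystine (-1.08, SE 0.10), and ASNS, which makes asparagine (-0.61, SE 0.09), were lower too. ASNS read 12.15, 12.21, 10.95 and 10.93 in Rab25 cells, against 12.52, 12.60, 11.78 and 11.79 in pcDNA cells. Its groups overlapped across the experiments and not within either. CEBPG, a leucine zipper partner of ATF4, fell by 0.65 (SE 0.07) and VEGFA, the angiogenic factor, by 0.76 (SE 0.07). Of 18 aminoacyl-tRNA synthetases, which charge tRNAs, 9 were lower and 0 higher, led by WARS1 (-0.72, SE 0.05) and GARS1 (-0.32, SE 0.05). Fitting all 24 arrays left 4 of them lower and omitting the block 0, with 5 at an unadjusted p under 0.05. In a fit of all 24 arrays SLC7A11, WARS1 and GARS1 were not called, and without the block NUPR1, CBS, SLC7A11, VEGFA, WARS1 and GARS1 were not. Of the genes singled out, TRIB3, DDIT3, ASNS and CEBPG were not called in the 24-array fit either.

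Promoters of these genes were searched for the core of the site that ATF4 binds with C/EBP proteins, TGATGNAA on either strand, in RefSeq windows (GRCh38.p14) of 250 bases before to 50 after each start site. Of 35116 windows, 1270 (3.62%) held it. Of the 26 list genes with a window 10 (38.5%) held it, 8 of them called lower, beside 331 of 9593 tested genes with a window (3.45%). With or without a match, 27 of all 31 list genes measured were called lower. A match describes the letters only. The list holds genes known for ATF4, so its raised share says nothing about these arrays, and the tested genes include the list. The windows of CHAC1 (chr15:40953221-40953520, plus strand), ASNS (chr7:97872359-97872658, minus strand) and CEBPG (chr19:33373863-33374162, plus strand), 3 called genes of different roles, are shown 5′ to 3′ with the match in capitals.
CHAC1: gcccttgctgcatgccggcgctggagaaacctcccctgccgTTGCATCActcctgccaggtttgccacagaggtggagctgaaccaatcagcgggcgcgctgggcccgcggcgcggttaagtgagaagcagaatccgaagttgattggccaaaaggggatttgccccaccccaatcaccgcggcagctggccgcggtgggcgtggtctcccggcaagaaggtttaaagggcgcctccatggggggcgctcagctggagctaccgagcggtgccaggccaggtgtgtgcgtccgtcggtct
ASNS: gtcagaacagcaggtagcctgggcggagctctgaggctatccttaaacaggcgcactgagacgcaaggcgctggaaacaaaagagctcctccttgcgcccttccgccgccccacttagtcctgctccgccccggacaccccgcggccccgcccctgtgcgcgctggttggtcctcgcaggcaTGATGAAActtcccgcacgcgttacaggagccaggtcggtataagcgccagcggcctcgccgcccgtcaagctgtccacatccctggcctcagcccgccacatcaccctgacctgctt
CEBPG: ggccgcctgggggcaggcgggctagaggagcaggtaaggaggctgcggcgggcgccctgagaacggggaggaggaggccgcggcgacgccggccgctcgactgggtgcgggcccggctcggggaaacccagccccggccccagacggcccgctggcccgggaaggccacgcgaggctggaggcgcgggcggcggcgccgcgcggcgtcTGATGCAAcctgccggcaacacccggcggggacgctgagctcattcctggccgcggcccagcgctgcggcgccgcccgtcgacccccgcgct

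Genes of the unfolded protein response and of folding in the endoplasmic reticulum were lower in this fit too. Of 20 measured, 13 were lower (65%, beside 15.5% of all genes) and 0 higher (median -0.23). DNAJB9, a cochaperone of the endoplasmic reticulum, read 11.67, 11.75, 9.95 and 9.73 in Rab25 cells, against 12.41, 12.57, 10.62 and 10.64 in pcDNA cells (-0.78, SE 0.06, limma adjusted p = 7.41e-05). Both lines were lower in experiment 2, and Rab25 cells lay below pcDNA cells within each. XBP1, a transcription factor of the response, read 10.56, 10.62, 10.52 and 10.51 in Rab25 cells, against 10.88, 10.95, 10.83 and 10.90 in pcDNA cells (-0.34, SE 0.05), with no overlap. SEL1L, of the degradation complex, fell by 0.41 (SE 0.06), SERP1, which guards membrane proteins during stress, by 0.37 (SE 0.06), and HSPA5, the main chaperone of the compartment, singled out after its values were seen, by 0.31 (SE 0.06). With all 24 arrays, 0 of the list were called by limma, with 6 lower at an unadjusted p under 0.05. Omitting the block left 1 lower. DNAJB9, XBP1, SEL1L and SERP1 were not called when all 24 arrays were fitted. Without the block no call was left for DNAJB9, SEL1L and SERP1.

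The element through which this response is known to act, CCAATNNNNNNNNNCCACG on either strand, was in 27 of the 35116 windows (0.0769%). It was in 8 of the 19 list genes with a window (42.1%), 5 of them called lower, beside 14 of 9593 tested genes with a window (0.146%). With or without a match, 13 of all 20 list genes measured were called lower. The list holds known genes of this response, so its raised share says nothing about these arrays, and the tested genes include the list. The windows of HSPA5 (chr9:125241294-125241593, minus strand) and XBP1 (chr22:28800520-28800819, minus strand), a chaperone and a regulator, are shown 5′ to 3′ with the match in capitals.
HSPA5: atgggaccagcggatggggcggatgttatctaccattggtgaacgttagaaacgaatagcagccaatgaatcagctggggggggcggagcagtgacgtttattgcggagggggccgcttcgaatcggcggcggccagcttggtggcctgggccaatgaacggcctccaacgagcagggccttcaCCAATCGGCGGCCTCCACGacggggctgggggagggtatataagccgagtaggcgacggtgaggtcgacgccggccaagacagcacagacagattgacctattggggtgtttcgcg
XBP1: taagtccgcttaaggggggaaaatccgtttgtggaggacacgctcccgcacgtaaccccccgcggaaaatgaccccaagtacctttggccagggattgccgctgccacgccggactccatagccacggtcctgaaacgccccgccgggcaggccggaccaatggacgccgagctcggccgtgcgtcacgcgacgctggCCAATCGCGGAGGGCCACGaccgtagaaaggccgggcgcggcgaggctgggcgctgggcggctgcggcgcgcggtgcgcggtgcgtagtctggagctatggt

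Heat shock chaperones of the cytosol were lower as well, with 11 of 21 lower (52.4%, beside 15.5% of all genes) and 1 higher (median -0.22). DNAJB6, a cochaperone that holds back aggregation, read 10.28, 10.39, 10.34 and 10.47 in Rab25 cells, against 11.24, 11.26, 11.17 and 11.14 in pcDNA cells, with no overlap. DNAJB4, of the same family, fell by 0.74 (SE 0.08). HSPA1A and HSPA1B, the inducible HSP70 genes, fell by 0.55 (SE 0.06) and 0.66 (SE 0.09), and since they are near-identical copies their probe sets may share signal. With all 24 arrays fitted, 6 of the list were lower. With 24 arrays in the fit HSPA1A and HSPA1B were not called, and without the block DNAJB4, HSPA1A and HSPA1B were not.

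Cholesterol synthesis genes were lower in the starved arrays, 12 of 17 (70.6%, beside 15.5% of all genes) with 0 higher and a median of -0.30. INSIG1, the sterol sensor partner in the endoplasmic reticulum, read 11.31, 11.35, 11.88 and 11.89 in Rab25 cells, against 11.94, 11.95, 12.45 and 12.41 in pcDNA cells (-0.58, SE 0.05, limma adjusted p = 7.72e-05). Its groups did not overlap, and both lines were higher in experiment 2. The enzymes MSMO1 (-0.40, SE 0.05), LSS (-0.48, SE 0.07) and NSDHL (-0.39, SE 0.06) were lower too, and another probe set of LSS gave -0.15 (and -0.55 in another). Fitting all 24 arrays left 0 called by limma, with 0 at an unadjusted p under 0.05, and omitting the block left 3 lower. In fatty acid synthesis 4 of 15 genes were higher and 7 lower, and outside the chromosome stretches described below 1 of 12 was higher and 7 lower. SCD, the desaturase, read 12.63, 12.65, 12.62 and 12.68 in Rab25 cells, against 13.36, 13.29, 13.46 and 13.30 in pcDNA cells, with no overlap (-0.71, SE 0.06). ME1, which supplies NADPH, fell by 0.74 (SE 0.06), with a dim probe set at 0.28 (and -0.82 in another), FASN, the synthase, by 0.44 (SE 0.05), and ACSL1, which activates fatty acids, rose by 0.44 (SE 0.07). In fatty acid oxidation 5 of 23 genes were higher and 4 lower. After CPT1A, its named members were ETFDH (-0.48, SE 0.06), ACAA2 (0.39, SE 0.07) and ACADVL (0.27, SE 0.05). The 24-array fit did not call INSIG1, MSMO1, LSS, NSDHL, SCD, FASN and ETFDH. Omitting the block ended the call of INSIG1, NSDHL, FASN, ACAA2 and ACADVL.

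Hypoxia response genes had 13 of 24 lower and 2 higher. SLC2A3, a glucose transporter, fell by 0.99 (SE 0.07) and NDRG1, a stress gene, by 0.77 (SE 0.06). ADM, the vasodilator adrenomedullin, rose, and read 12.16, 12.26, 12.07 and 12.07 in Rab25 cells, against 11.63, 11.53, 11.36 and 11.22 in pcDNA cells, with no overlap. Of 17 glycolysis genes 1 was higher and 3 were lower. LDHB, a lactate dehydrogenase subunit, fell by 0.63 (SE 0.05). HK2 fell by 0.43 (SE 0.08), and a second probe set gave 0.12. Respiratory chain subunits had 7 of 41 higher, led by NDUFV1 (0.46, SE 0.05) and NDUFS8 (0.38, SE 0.06), and 3 lower, led by COX6C (-0.28, SE 0.05) and NDUFA9 (-0.30, SE 0.06). All 4 lie in the chromosome stretches described below. Lysosome and autophagy genes had 13 of 30 lower and 0 higher. CTSD, a lysosomal protease, read 9.12, 9.19, 8.88 and 8.91 in Rab25 cells, against 9.87, 9.90, 9.49 and 9.21 in pcDNA cells, with no overlap. GABARAPL1, of autophagosomes, fell by 0.76 (SE 0.08), WIPI1, which helps form them, by 0.49 (SE 0.05), and ATP6V1A, of the proton pump, by 0.36 (SE 0.05). Among lysosome genes 7 were lower with all 24 arrays fitted, and among hypoxia genes 4 without the block. When 24 arrays shared the spread HK2 and WIPI1 were not called, and without the block SLC2A3, NDRG1, HK2, COX6C, NDUFA9, CTSD, GABARAPL1 and WIPI1 were not.

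Genes that FOXO factors induce when growth factors are withdrawn had 11 of 27 lower and 4 higher. This balance shrank with scaling, to 7 lower and 6 higher after quantile normalization and 8 and 5 after centring. TXNIP, which restrains glucose uptake, rose by 0.80 (SE 0.08). KLF9 and CDKN1B, an inhibitor of cyclin-dependent kinases (-0.58, SE 0.07), fell, as did IGF1R, the IGF receptor (-0.62, SE 0.07), whose other probe sets gave -0.19 and 0.02. Negative feedback genes of ERK signalling had 8 of 16 lower and 0 higher. ETV5, an ERK-induced factor, fell by 0.51 (SE 0.05), SPRY4, an inhibitor of the pathway, by 0.50 (SE 0.06), and DUSP4, an ERK phosphatase, by 0.56 (SE 0.07). HBEGF, an EGF receptor ligand, read 9.69, 9.71, 9.37 and 8.94 in Rab25 cells, against 10.34, 10.42, 10.20 and 10.08 in pcDNA cells, with no overlap. Dim probe sets of SPRY4 and HBEGF gave 0.18 and 0.00 (and -0.75 in another). Fitting all 24 arrays left 2 of this list lower, and 2 higher and 6 lower of the FOXO list. In a fit of all 24 arrays SPRY4 and DUSP4 were not called. Without the block no call was left for TXNIP, CDKN1B, ETV5, SPRY4 and DUSP4.

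Immediate-early genes were split, 5 of 26 higher and 5 lower, with 6 and 5 after quantile normalization and 6 and 4 after centring. KLF4, a factor of growth arrest, read 10.46, 10.47, 10.35 and 10.26 in Rab25 cells, against 11.47, 11.65, 11.50 and 11.40 in pcDNA cells (-1.12, SE 0.06), with no overlap. EGR1, induced by growth factors, rose by 0.84 (SE 0.09), near the bound of the dim range, with a dim second probe set at -0.05. IER5 (0.42, SE 0.05) and FOSL1, an AP-1 subunit (0.31, SE 0.05), were higher too. Among ERBB receptors and ligands 1 of 17 was higher and 3 lower. ERBB2, the receptor HER2, rose by 0.46 (SE 0.09), with a dim probe set at 0.03. EGR1 and ERBB2 were not called when all 24 arrays were fitted, and without the block FOSL1 was not.

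TGF-beta genes also moved in both directions. Of 25 ligands, receptors and SMADs 4 were higher and 7 lower, and of 25 direct targets 4 were higher and 9 lower. In the 24-array fit 3 targets were higher and 5 lower, and 4 and 3 of the WNT genes below. Opposite to TGFB2, the ligand TGFB1 rose, and read 10.02, 10.08, 10.03 and 10.08 in Rab25 cells, against 9.48, 9.57, 9.67 and 9.54 in pcDNA cells, with no overlap and a dim probe set at 0.06. ENG, a coreceptor, rose by 0.68 (SE 0.08) and LTBP3, which tethers latent ligand, by 0.41 (SE 0.05). Among the 4 higher targets were TNC, a matrix protein (0.72, SE 0.10), NOX4, an oxidase (0.87, SE 0.13), and TAGLN, an actin-binding protein (0.50, SE 0.08). The 9 lower targets outnumbered them. Outside the chromosome stretches described below, 2 of 21 targets were called higher and 8 lower. In the BMP pathway 1 of 22 was higher and 4 lower, among them BAMBI, a decoy receptor (-1.21, SE 0.27), and MSX2 (-0.37, SE 0.09), which has a dim probe set at 0.15 (and -0.50 in another). WNT genes had 8 of 34 higher and 5 lower, among them the secreted inhibitors SFRP1 (0.72, SE 0.08) and DKK1 (0.54, SE 0.08), both higher, and the receptor FZD6, lower (-0.68, SE 0.07). In the Notch pathway 2 of 20 were higher and 2 lower, with 3 and 2 after quantile normalization and 4 and 2 after centring. With HES1, its other classical target HEY1 fell, and read 9.52, 9.44, 8.46 and 8.60 in Rab25 cells, against 10.56, 10.64, 9.73 and 9.74 in pcDNA cells. Its groups did not overlap, and RBPJ, the pathway's DNA-binding factor, rose by 0.32 (SE 0.07), with a second bright probe set at 0.08. HES1 and HEY1 lie in chromosome stretches described below, outside which 1 of 17 Notch genes was called higher and 0 lower. With 24 arrays in the fit ENG, LTBP3, TAGLN, SFRP1, DKK1 and RBPJ were not called. Omitting the block ended the call of ENG, TNC, NOX4, TAGLN, BAMBI, MSX2, DKK1, HEY1 and RBPJ.

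Matrix and adhesion genes were mixed. Of 29 collagen chains 3 were higher and 3 lower, with 4 and 3 after quantile normalization and 5 and 2 after centring. That is 10.3% in each direction, beside 10.1% higher and 15.5% lower of all genes. COL13A1, a transmembrane collagen, fell by 1.07 (SE 0.09), and COL9A3 rose by 0.54 (SE 0.10) within the dim range. COL1A1, of fibrillar collagen, read 8.02, 8.02, 8.16 and 8.49 in Rab25 cells, against 7.80, 6.80, 7.07 and 6.90 in pcDNA cells (1.03, SE 0.21). Dim probe sets of it gave -0.14 and 0.02 (and 0.25 in another), and pcDNA array 1-1 stood above the other pcDNA arrays for it and for COL3A1, at 6.60. Of 47 further matrix and protease genes 10 were higher and 8 lower, against 3 and 7 in the 24-array fit. SERPINE2, a protease inhibitor, read 10.67, 10.76, 9.66 and 9.56 in Rab25 cells, against 11.96, 11.95, 10.82 and 10.83 in pcDNA cells (2.34-fold lower). LAMC1, a laminin chain, rose by 0.76 (SE 0.06), ADAMTS5, an aggrecanase, by 0.74 (SE 0.07), and FBLN1 fell by 1.03 (SE 0.07), with dim probe sets at 0.09 and 0.32 (and -0.42 and -1.35 in others). The 24-array fit did not call COL1A1 and ADAMTS5, and without the block SERPINE2 and ADAMTS5 were not.

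Of 31 genes of epithelial junctions and keratins 3 rose and 6 fell, against 5 and 6 after quantile normalization and 6 and 5 after centring. The desmosomal genes moved apart, with DSP higher and DSC2, a desmosomal cadherin, lower (-0.53, SE 0.07). SPINT2, a protease inhibitor, rose by 0.97 (SE 0.13), and OCLN, of tight junctions, fell by 0.58 (SE 0.09) in the dim range. Of 24 mesenchymal genes 3 were higher and 3 lower, with 3 and 2 after quantile normalization and 3 and 1 after centring. FN1, fibronectin, read 14.96, 15.01, 14.82 and 14.90 in Rab25 cells, against 14.50, 14.48, 14.25 and 14.13 in pcDNA cells (0.58, SE 0.06), with no overlap. ZEB2, a repressor of E-cadherin, fell by 0.90 (SE 0.11), with a dim probe set at 0.12, and CDH1, E-cadherin itself, was dim in both lines (0.20, SE 0.09, not called). Of 25 SRF, actin and YAP targets 4 were higher, among them MYL9 (0.55, SE 0.06) and ACTA2 (0.48, SE 0.07), and 3 lower, led by TAGLN2 (-0.45, SE 0.05). Without the block OCLN and ACTA2 were not called.

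NF-kB targets, cytokines and chemokines had 10 of 29 lower and 5 higher, against 5 and 2 in the 24-array fit. IL6 read 10.51, 10.51, 8.34 and 8.74 in Rab25 cells, against 11.55, 11.73, 9.72 and 9.41 in pcDNA cells (2.11-fold lower, limma adjusted p = 0.000135). Both lines were lower in experiment 2, and Rab25 cells lay below pcDNA cells within each. CXCL2 and CCL20, chemokines, fell by 0.83 (SE 0.07) and 0.78 (SE 0.10), and TRAF1, a signalling adaptor, by 0.87 (SE 0.07). Interferon response genes had 6 of 29 higher and 8 lower (7 and 7 under both other scalings), with IFI44 (-0.55, SE 0.06), GBP1 (-0.54, SE 0.07) and the factor IRF1 (-0.41, SE 0.06) lower and a dim probe set of IFI44 at -0.04. Of 19 genes of class I antigen presentation 2 were lower and 0 higher. ERAP1, which trims peptides, fell by 0.55 (SE 0.10), with dim probe sets at -0.15, -0.09 and -0.17 (and -0.36 and -0.64 in others). Of 22 p53 targets 3 were higher and 5 lower, which turned to 8 and 3 after quantile normalization and 7 and 4 after centring. TP53I3, an oxidoreductase, read 10.27, 10.23, 10.12 and 10.12 in Rab25 cells, against 9.50, 9.43, 9.33 and 9.56 in pcDNA cells (0.73, SE 0.06), with no overlap. DDB2, of DNA repair, rose by 0.45 (SE 0.06), and AEN, a nuclease, fell by 0.36 (SE 0.05). In a fit of all 24 arrays IL6 and GBP1 were not called, and without the block IL6, CXCL2, CCL20, TRAF1, GBP1 and IRF1 were not.

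Genes of mitosis differed between the experiments. The 37 G2/M genes had a median of 0.47 in experiment 1, with 36 of them higher in Rab25 cells, and of -0.22 in experiment 2, with 31 lower. The mean of the list was 10.94, 10.99, 11.38 and 11.29 in the Rab25 arrays and 10.47, 10.60, 11.56 and 11.62 in the pcDNA arrays. It was higher in Rab25 cells in experiment 1 and lower in experiment 2, and both lines were higher in experiment 2. Over both experiments 2 genes were called higher, UBE2C (0.53, SE 0.15) and TPX2 (0.44, SE 0.14), and 1 lower, ECT2 (-0.50, SE 0.10). UBE2C was not called in 4 of the fits without 1 array and TPX2 not in 5. Fitted alone, experiment 1 gave 24 higher and 0 lower, and experiment 2 gave 0 higher and 9 lower. The 39 G1/S and replication genes had medians of 0.32 in experiment 1 and -0.05 in experiment 2, and 8 were higher and 3 lower over both, against 3 and 0 in the 24-array fit. POLA2, a subunit of DNA polymerase alpha, rose by 0.71 (SE 0.11) and FEN1, a flap nuclease, by 0.37 (SE 0.06). RFC4, a clamp loader, fell by 0.36 (SE 0.06). Outside the chromosome stretches described below, 5 of 34 G1/S and replication genes were called higher and 2 lower. Of 33 G2/M genes outside them 2 were called higher and 0 lower, and ECT2 lies within them. UBE2C, TPX2, ECT2 and RFC4 were not called when all 24 arrays were fitted. Omitting the block ended the call of UBE2C, TPX2, ECT2, POLA2, FEN1 and RFC4.

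**Figure D3:**
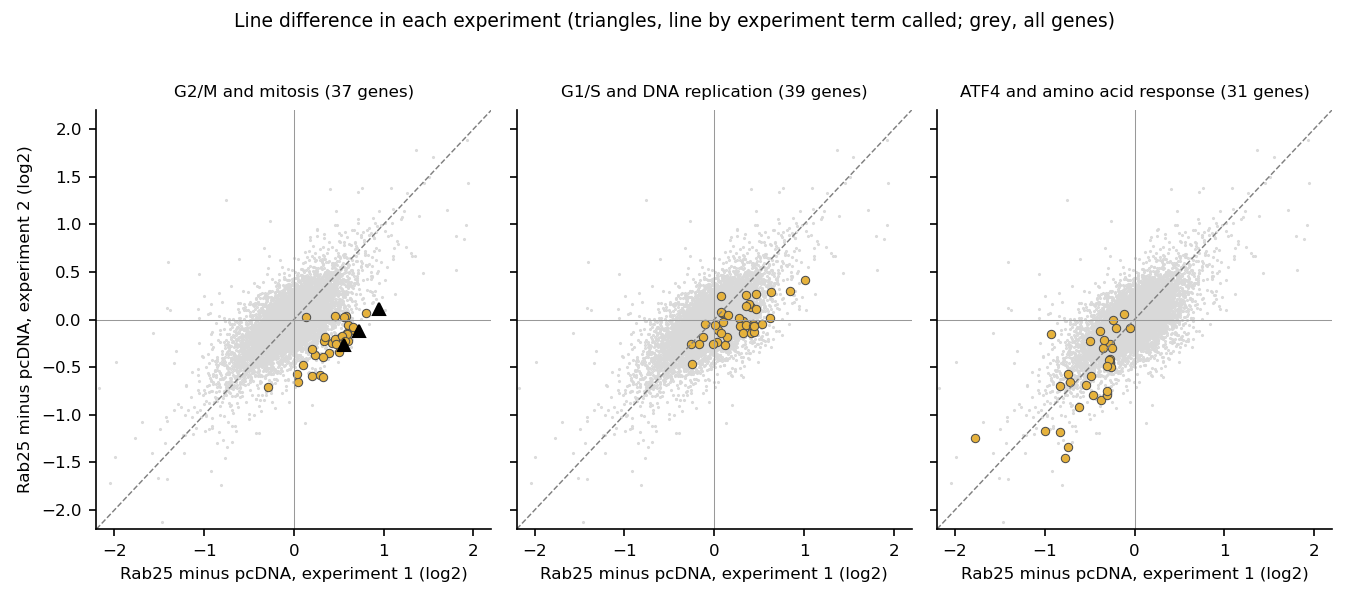
Line difference (Rab25 minus pcDNA, log2) in experiment 1 (horizontal axis) and experiment 2 (vertical axis) for 3 lists, with all genes in grey, equal differences as the dashed line and triangles where the line by experiment term was called. G2/M genes lie mostly right of 0 in experiment 1 and below 0 in experiment 2, with medians of 0.47 and -0.22.

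The test of the difference between experiments, the line by experiment term, called 13 genes (0.109%), while 1535 passed an unadjusted p of 0.05. Of the G2/M list 3 were called and 35 had an unadjusted p under 0.05. The lowest p was that of PAPPA2, a protease of IGF-binding proteins, which read 6.48, 6.46, 5.61 and 5.66 in Rab25 cells, against 8.64, 8.65, 6.36 and 6.34 in pcDNA cells. Its line difference was -2.17 in experiment 1 and -0.71 in experiment 2 (limma adjusted p of the term = 0.00208), and its dim probe sets gave -0.05 and 0.13. Without the block no call was left for PAPPA2. LGR5 differed by 0.71 and 2.22 (limma adjusted p of the term = 0.0153), in experiments 1 and 2, with the larger rise in the second. SPRR2D, of the cornified envelope, differed by -0.998 in experiment 1 and 0.24 in experiment 2 and was not called over both. Leaving out single arrays left between 1 and 5 genes called for this term.

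Of 26 cyclins, CDKs and inhibitors 1 was higher, CCND2, and 4 were lower, CDKN1B among them, which turned to 4 and 2 after quantile normalization and 4 and 2 after centring. RB1, the retinoblastoma protein, fell by 0.22 (SE 0.06), a call lost in 4 of the fits without 1 array, and a dim probe set gave -0.17. Histone genes had 11 of 46 lower and 1 higher, but 29 of them, dim ones included, lie within the bounds of 1 stretch on chromosome 6, outside which 4 of 17 were lower. Histone genes are near-copies of each other, so probe sets may share signal. Ribosome biogenesis genes had 4 of 33 higher, led by NPM3, a nucleolar chaperone (0.71, SE 0.12), and 3 lower, led by BOP1 (-0.37, SE 0.05). Of 43 cytosolic ribosomal proteins 0 were higher and 0 lower by limma, with 1 at an unadjusted p under 0.05.

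Markers of the ovarian epithelial lineage were partly present, 7 of 13 above the dim range. PAX8, the lineage factor of ovarian carcinomas, read 12.34, 12.35, 12.09 and 12.15 in Rab25 cells, against 11.67, 11.60, 11.37 and 11.48 in pcDNA cells (0.71, SE 0.05, limma adjusted p = 3.81e-05). It was high in both lines, with no overlap. KRT8 rose by 0.23 (SE 0.05), with a dim probe set at -0.07, and FOLR1, the folate receptor, fell by 0.55 (SE 0.13), with a dim one at -0.11. CDH1 was dim, as given above. Markers of other cell types were mostly dim. Of the immune list 1 of 14 was above the dim range, of the adipocyte list 0 of 8, of the liver list 2 of 12, of the breast list 3 of 13 and of the fibroblast, endothelial and neural lists 4 each, of 12, 11 and 12. Summed over the immune list the signal was 80.2 to 82.2 in Rab25 cells and 78.8 to 80.3 in pcDNA cells, and over the fibroblast list 81.6 to 83.2 in Rab25 cells and 80.8 to 85.2 in pcDNA cells, ranges that overlap between the lines. The adipocyte list summed to 45.0 to 45.8 in Rab25 cells and 46.1 to 47.1 in pcDNA cells, without overlap. Endothelial genes had 2 higher, CDH5 (0.67, SE 0.11) and ROBO4 (0.69, SE 0.08), with a sum of 77.1 to 79.3 in Rab25 cells and 74.99 to 76.8 in pcDNA cells. Breast genes had 3 lower, led by KRT15 (-1.03, SE 0.11). In the fibroblast list 1 was higher and 2 were lower, in the neural list 1 and 3 (after centring 2 and 1, and 1 and 1), and in the adipocyte list 0 and 1. Limma called no gene of the immune and liver lists, with 1 and 2 at an unadjusted p under 0.05. The part of other cells in any result was not tested.

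Developmental factors had 7 of 32 higher and 2 lower, with PAX6 (0.38, SE 0.07) and HOXD10 (0.27, SE 0.06), a dim one, beside SOX17 and PAX8. Relatives of the leading genes were read too. Among FK506-binding proteins and calcium release channels 3 of 18 were higher and 3 lower. FKBP1A, the close paralog of FKBP1B, rose by 0.28 (SE 0.05), and the inositol trisphosphate receptors ITPR1 and ITPR2 fell by 0.74 (SE 0.08) and 0.71 (SE 0.06), with other probe sets at 0.02 (and -0.47 and -0.45 in others) for ITPR1 and -0.01, -0.09 and 0.05 (and -0.35 and -0.20 in others) for ITPR2. In the PNMA family PNMA3 rose by 0.28 (SE 0.05) and MOAP1 fell by 0.20 (SE 0.07), a call lost in 7 of the fits without 1 array. The 24-array fit did not call PAX6, HOXD10, PNMA3, MOAP1, RB1 and BOP1. Without the block no call was left for KRT8, FOLR1, ITPR1, PNMA3, MOAP1, RB1, NPM3 and BOP1.

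Neighbouring genes differed together along parts of several chromosomes. Genes were placed in RefSeq order and grouped, dim genes left out, in blocks of 20 neighbours, and blocks with a median line difference of at least 0.15 in the treated arrays were taken, a choice made after the starved values had been seen. Of 349 blocks 43 passed, 18 higher and 25 lower, and all 43 had the same sign in the starved arrays. They formed 9 stretches with 890 genes. In the stretches higher in treated Rab25 cells 242 of 362 genes (66.8%) were called higher in starved cells, and in those lower 349 of 528 (66.1%) were called lower, beside 10.4% higher and 19.8% lower of 6268 genes in no stretch.

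The longest stretch ran on chromosome 11 from CTNND1 to ACAD8, with a median of 0.32 over 282 genes, 194 of them called higher, CPT1A included. On chromosome 3, from ALCAM to RPL35A, the median was -0.37 over 206 genes, and 160 were lower, among them HES1, SLC12A8, ST6GAL1, GSK3B and GYG1. Within its bounds LXN, dim on average and so in no block, was lower too. On chromosome 8, from LYN to C8orf33, 98 of 163 genes were lower (median -0.29), HEY1 and NDRG1 among them, and on chromosome 12, from SLC6A13 to FAR2, 60 of 100 (median -0.30). CCND2 lies in the chromosome 12 stretch and was higher. The shorter stretches were SUCO to INAVA on chromosome 1 (median 0.34, 40 genes), DNAJC24 to TRAF6 on chromosome 11 (0.26, 20 genes), TRPC4AP to NDRG3 on chromosome 20 (0.22, 20 genes), HDGFL3 to TM2D3 on chromosome 15 (-0.28, 39 genes) and MRS2 to BTN2A1 on chromosome 6 (-0.23, 20 genes). Of the 76 genes changed at least 2-fold, 15 lie within the bounds of the stretches. Dim genes included, those bounds hold 1443 of all 11940 genes. DNA was not measured, and a part of DNA copy number in this pattern was not tested. In a fit without the 1443 genes within the bounds of the stretches, 2247 were called. By the main fit, 26 of the 30 ATF4 list genes outside those bounds were lower.

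**Figure D4:**
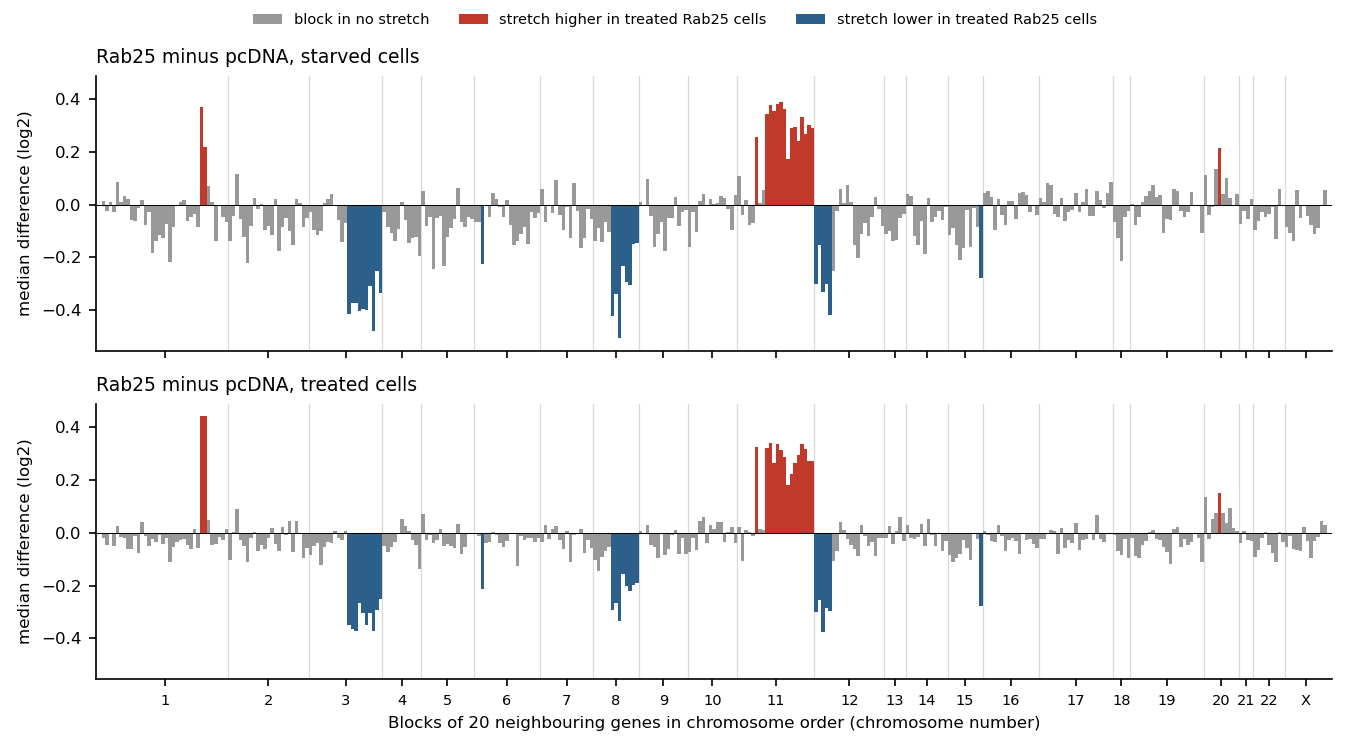
Median line difference (vertical axis, Rab25 minus pcDNA, log2) of each block of 20 neighbouring genes in chromosome order (horizontal axis), in starved cells above and treated cells below. Red and blue bars are the 9 stretches chosen on the treated arrays, and grey bars are blocks in none, the largest of them 0.25 in size in starved cells.

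The 16 treated arrays held no array of the starved comparison, but came from the same lines and the same experiments. In a fit of their own 1430 genes (12.0%) differed between the lines. Of the 3056 genes called in starved cells 2862 (93.6%) had the same sign there, a share that was not counted over all genes. With the same sign 1138 were called in both, which is 37.2% of the starved and 79.6% of the treated calls. The 76 genes of at least 2-fold all kept their sign, 66 with a call. RAB25 differed by 3.26 in the treated arrays, FKBP1B by 3.12 and PNMA2 by -2.65. Of the 20 largest rises 17 were called with the same sign, the exceptions being LGR5 (0.33), SPOCK1 (0.89) and CXCR4 (0.28), and of the 20 falls 19, the exception being NEDD9 (-0.92). In the ATF4 list 8 were lower and the median was -0.25. In the unfolded protein response list 0 were called by limma (3 at an unadjusted p under 0.05), and in the cholesterol list 0 (5).

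**Figure D5:**
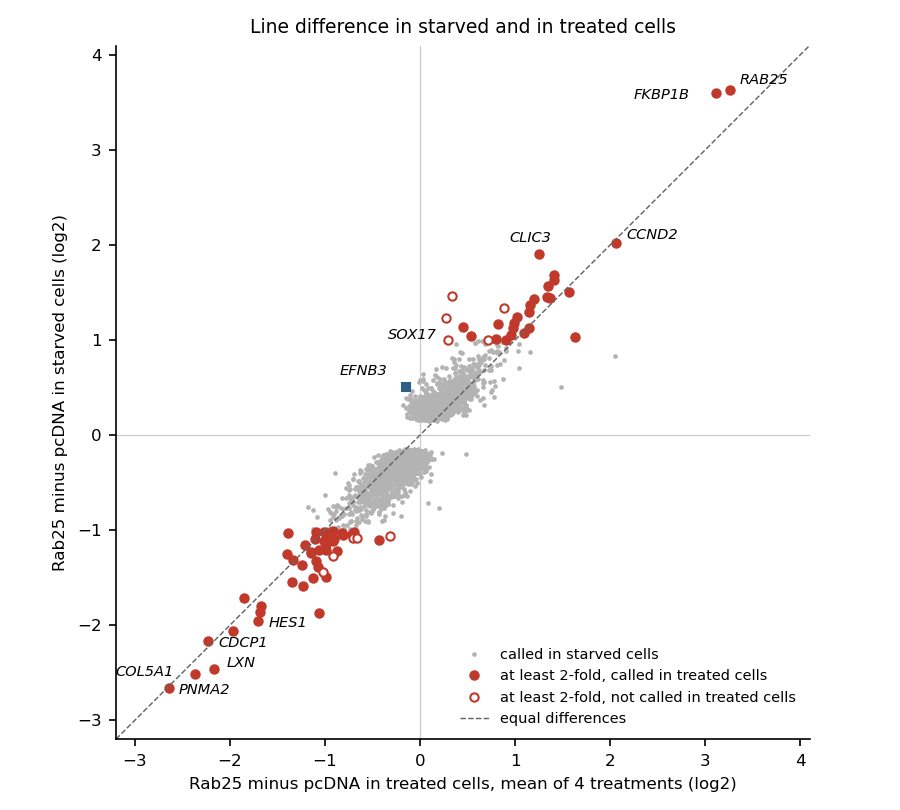
Line difference in treated cells (horizontal axis, mean of 4 treatments, log2) and in starved cells (vertical axis, log2) of the genes called in starved cells, with equal differences as the dashed line. Red points are the 76 genes of at least 2-fold, filled where also called in treated cells (66), and the blue square is EFNB3, which differed by 0.50 starved and -0.15 treated.

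The difference between the starved and the treated line difference was tested in a fit of all 24 arrays. It called 2 genes (0.0168%), while 911 passed an unadjusted p of 0.05. EFNB3, an ephrin ligand near the bound of the dim range, read, when starved, 6.75, 6.83, 6.69 and 6.73 in Rab25 cells, against 6.23, 6.13, 6.35 and 6.28 in pcDNA cells. Its line difference was 0.50 in starved cells and -0.15 in treated cells (limma adjusted p of the difference = 0.00545). A dim second probe set of EFNB3 gave 0.07. SOX17 differed by 1.14 in starved cells, and by 0.98 with EGF, 0.26 with IGF, 0.64 with TGF beta and -0.07 with FBS (limma adjusted p of the difference = 0.0385). Its line difference was smallest with FBS and largest in starved cells. SOX17 was at 8.71 ± 0.11 in Rab25 cells and 7.57 ± 0.07 in pcDNA cells when starved (SD, n = 4 each).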

How the data were processed

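Expression was measured on Affymetrix high-throughput human genome arrays, which read messenger RNA with sets of short probes. The values used are log2 signals deposited by the authors in the series' value table, and the submitters' processing notes name MAS5 and RMA, with their roles and order not given in the sources used here. Values were not normalized again in the main analysis. Probe sets were named from the platform annotation, and a check of the symbols against RefSeq changed 0 of them. Probe sets with no symbol or several were left out, and a gene took its probe set of highest mean over 24 arrays.

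Arrays were grouped by title, and the first digit of the replicate number, the experiment, was a block. Line differences were fitted with limma 3.58.1 (R 4.3.3) on 8 arrays, with Benjamini-Hochberg adjustment over 11940 genes at 0.05. The line by experiment term, the 16 treated arrays and starved minus treated (24 arrays) had fits of their own. The fits were also run on simulated data with independent errors and few changed genes, a simpler setting than these arrays. No result here rests on that run. As for pairing, the experiment difference of the 2 lines correlated at 0.78 over genes, so experiment was shared, while the second digit did not pair arrays (0.20 and 0.01). The number of arrays limits the precision.

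The genes, lists and tests were chosen with earlier results of these data known. Genes named were RAB25, FKBP1B and PNMA2, the 20 largest rises and 20 largest falls among called genes whose arrays did not overlap, up to 4 called members of lowest p per list, the 4 of lowest p for the line by experiment term and up to 4 in each direction for starved minus treated. Other probe sets of a gene are given where they oppose or lie within 0.2 of 0. Alternatives were quantile normalization, median centring, other blocks, weights, probe set medians, a filter on dim genes, single experiments and leaving out each array. Python 3.11.15, numpy 2.4.6, scipy 1.17.1, pandas 2.3.3 and matplotlib 3.10.9 were used. A gene list that was fitted is not reported here.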

Additional observations from a re-analysis of the deposited data

Results flagged for a closer look

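On 5 of 412 groups of 4 arrays, 1 array lay far from the other 3. Each group holds 2 arrays of each experiment, so a shift between experiments can hide an outlying array. The rate can therefore not be set against chance. EFNA1 read 5.79 on pcDNA array 1-2, against 5.44 to 5.49 on the other pcDNA arrays. On the same array PIK3CD read 10.7, against 10.8 on the others, the T-cell gene CD8A 5.05 against 5.69 to 5.82, and the adipocyte gene FABP4 5.73 against 6.71 to 6.75. CD8A read 6.15 on Rab25 array 2-2, against 5.89 to 5.91 on the other Rab25 arrays.

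The line difference itself differed between the experiments for 13 genes, each by limma's term. In experiment 2 minus experiment 1 the difference was 1.46 for PAPPA2, 1.52 for LGR5, 1.24 for SPRR2D, 1.48 for the collagenase MMP1, 1.44 for LAMP3, 1.54 for IGFBP1, an IGF-binding protein, and 1.54 for BAMBI. It was -1.04 for NMNAT2 and -1.29 for EFNA1, and, among genes of mitosis, -0.83 for CENPA, -0.84 for TOP2A, -0.84 for UBE2C and -0.94 for KIF20B. In experiment 1 MMP1 differed by -1.38 and IGFBP1 by -1.41, against 0.10 and 0.13 in experiment 2.

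Starved and treated cells differed in their line difference for 2 genes. The starved minus treated value was 0.65 for EFNB3, which differed by 0.50 starved and -0.15 treated, and 0.68 for SOX17, which differed by 1.14 starved and 0.45 treated.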

How the results depend on the processing

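The starved comparison called 3056 genes. As totals of separate fits, whose overlap with these was not counted, 1767 were called with all 24 arrays in the fit, 1081 with arrays of 1 line and experiment averaged, 1800 in experiment 1 alone, 1354 in experiment 2 alone and 76 with a 2-fold minimum. Without the replicate block 919 were called, and leaving out each array gave 2351 to 3011. Blocking by the full replicate number gave 2700, which is within 1.5 times. The count of the line by experiment term, 13, was 60 after quantile normalization, 91 after median centring, 129 without the lowest 40% of genes, and 1 to 5 on leaving out an array. That of the treated comparison, 1430, was 596 without the replicate block. That of starved minus treated, 2, was 1 after quantile normalization, without the replicate block and without FBS, 1 to 2 on leaving out an array, and 0 by limma after median centring (783 at an unadjusted p under 0.05). Other probe sets turned ST6GAL1 to 0.094, COL1A1 to -0.061 and RPS28 to 0.25 as medians, and SPRR2D was 0.24 in experiment 2 alone. The causes were not tested. Few arrays and 1 line of each kind limit these results, and signals of dim genes are close to background.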
